A study of Mus musculus with 22 samples.

Results

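The cytosolic ribosomal protein genes were examined in a murine model of chronic lymphocytic leukemia (CLL) with and without Nfkbie. The members are the protein-coding genes whose GENCODE symbols begin with Rpl or Rps followed by the protein number, with Rplp0 to Rplp2 and Rpsa, and without the Rps6k kinases. The count table held 82 such genes among 17023 genes in all, from 479 transcripts. 84 genes of the annotation matched the rule, and Rpl10l and Rps4l had no transcript in the table. 50 members encode proteins of the large subunit and 32 of the small subunit. Levels are given as CPM, which are counts relative to a library size that TMM scaling corrects for composition.

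A cytosolic ribosome carries 1 copy of nearly every ribosomal protein, so these genes are expressed together at high levels in growing cells. Many of their mRNAs start with a C followed by a run of C and T, the 5′ terminal oligopyrimidine (TOP) motif, through which mTOR and LARP1 control their translation. In B cells, ribosome production rises on activation, and mutations of RPS15 recur in human CLL.

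TCL1-355 TKO is a cell line established from a leukemia of the Eμ-TCL1 mouse, in which a transgene drives TCL1 in B cells. Cdkn2a, Cdkn2b and a further tumor suppressor gene are disrupted in it, in all groups alike. NFKBIE-ko cells received Cas9 ribonucleoprotein against Nfkbie, which encodes the NF-kB inhibitor IκBε, and NFKBIE-wt cells were mock transfected. The 2 genotypes were propagated apart in 2 C57BL/6 mice for 21 days, so that the genotype and the propagated population cannot be told apart. They were then injected intraperitoneally into 5 mice per group, and RNA was taken on day 10 from spleen or peritoneal cavity (PC) without purification of the leukemic cells. The in vitro groups came from spleens of 3 mice and were kept in culture for 2 weeks. The 22 libraries form 6 groups, with 4 NFKBIE-wt and 4 NFKBIE-ko libraries each from PC and spleen, and 3 of each in vitro. With 4 PC and 4 spleen libraries from 5 mice per group, some mice gave both, but the labels do not tie libraries to mice, so PC and spleen were tested as independent samples. The labels give blood as the tissue of all of them. Where samples of a group did not come from separate animals or cultures, the p-values measure only a spread that may be technical.

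The libraries held between 24036763 and 26581304 counts. Marker genes of B cells took 0.918% to 1.54% of the counts in every library. Replicate 4 of the libraries labelled NFKBIE-wt spleen had no count of the hemoglobin gene Hbb-bs or of the granulocyte genes S100a8 and S100a9, and 5 of 9 measured erythroid markers were at 0 in it. In the other 3 NFKBIE-wt spleen libraries erythroid markers took 0.0279% to 0.199% of the counts. Replicate 3 of the libraries labelled NFKBIE-wt in vitro held all 9 erythroid markers at 0.147% of its counts, against 0.00121% to 0.00206% in the other 2. Both libraries went against their labels, so the main member results that use them are also given without them.

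Nfkbie was read at 67.3, 81.4, 76.6 and 91.2 CPM in the NFKBIE-wt PC libraries and at 64.9, 47.2, 55.9 and 47.5 CPM in the NFKBIE-ko PC libraries, a fall of 0.56 on the log2 scale (adjusted p = 0.00377, edgeR quasi-likelihood test with Benjamini-Hochberg adjustment, as for all adjusted p-values here). In spleen it averaged 86.0 ± 25.3 CPM in NFKBIE-wt and 98.8 ± 30.1 in NFKBIE-ko (SD, n = 4 each; adjusted p = 0.730). In vitro it was 117, 141 and 54.3 CPM in NFKBIE-wt replicates 1 to 3 and 56, 59.9 and 48.2 CPM in NFKBIE-ko replicates (adjusted p = 0.517). NFKBIE-wt in vitro replicate 3 lay within the NFKBIE-ko range, and an indel need not lower the mRNA, so the transcript level checks the labels only in part.

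Transcription starts of 62 members were found among the mouse RefSeq promoters (GRCm38.p6), and 20 members had no entry. A C at the annotated start followed by at least 4 bases of C or T was present in 12 of the 62 (19.4%), against 673 of 27025 promoters in all (2.49%). Such a run began within 5 bases of the start in 28 members (45.2%), against 18.5% of all promoters. None of 69 mitochondrial ribosomal protein genes had it at the start itself. Windows of a selection of the members named below are shown from 5 bases before the start to 20 bases into the transcript. They are written on the strand of the gene. The selection is richer in such runs than the 62 members. Rpl5, Rpl6, Rpl9, Rplp0, Rpl11, Rpl22 and Rpl3l, also named below, had none within 5 bases of the start. Capitals mark the C and T run.
Rps6: cgggcCTCTTTTTCgtgacgcctcc
Rps18: ccgctCTCTCTTCCacaggaggcct
Rps27: tcgctCCTTTCCggcggtgacgacc
Rplp2: tcttcCTTTCgccgccggacgccgc
Rpl13a: gacaagaCCTCCTCCTTTCCCaggc
Rpl22l1: agcccgttCTCTTCCCacggctgca
Rps27l: ccgccgCCTCTatcccggaagttgc
Rpl7l1: gcaagcgcagtagctgaagcaccgg
These windows lie at chr4:86857348-86857372 (minus strand), chr17:33955646-33955670 (minus strand), chr3:90213629-90213653 (minus strand), chr7:141447646-141447670 (plus strand), chr7:45128726-45128750 (minus strand), chr3:28805503-28805527 (plus strand), chr9:66946081-66946105 (plus strand) and chr17:46782637-46782661 (minus strand), in the same order. In Rps6, Rps18, Rps27 and Rplp2 the run began at the annotated start, in Rpl13a, Rpl22l1 and Rps27l it began near it, and Rpl7l1 had none.

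Most members were abundant. 77 of the 82 averaged at least 100 CPM over the 22 libraries, 45 averaged at least 1000, and the median member stood at 1077 CPM. Per kilobase of transcript, the highest levels were those of Rpl13a (4386 CPM per kb), Rplp0 (3513), Rps18 (3325), Rplp1 (3129) and Rpl23a (2788). Rpl41, the shortest member with 75 coding bases, ranked first per kilobase of coding sequence. At the low end stood Rpl3l, a paralog of Rpl3 known from heart and skeletal muscle, at 3.21 CPM per kb, and Rpl39l, a paralog of Rpl39 known from testis, which had no count in 16 libraries. Rpl39l did not pass the filter on low counts, which left 81 members in every test.

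Low levels of a few members are uncertain, because reads can be shared with copies elsewhere in the genome. 282 transcripts of 281 other genes, many of them pseudogenes, shared at least 50% of their 31-base words with a member and held 11.6% of the member-like counts. Rpl5, Rps27 and Rpl12 lost the most to such copies, with 95.0%, 94.2% and 93.1% of their combined counts assigned elsewhere. 8 members lost over 50% and 20 lost over 10%, whereas 15 had no such copy.

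**Figure D1:**
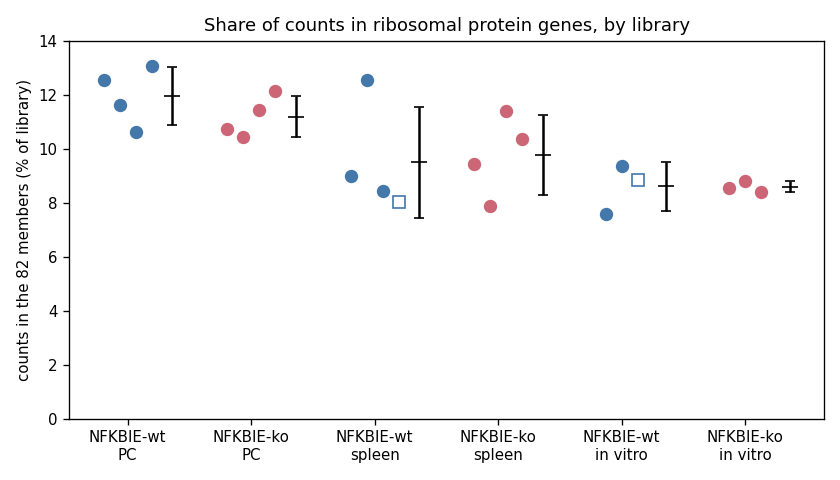
Share of each library's counts in the 82 ribosomal protein genes (y axis, percent) for the 6 groups (x axis). Points are libraries, open squares the 2 libraries whose markers went against their labels, and bars the mean ± SD; the 8 PC libraries lie between 10.4% and 13.1% and the 6 in vitro libraries between 7.58% and 9.37%.

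The members took a larger part of the RNA in PC than in culture. Their share was 12.5%, 11.6%, 10.6% and 13.1% of the counts in NFKBIE-wt PC replicates 1 to 4, and 10.7%, 10.4%, 11.4% and 12.1% in the NFKBIE-ko PC replicates. In vitro it was 7.58%, 9.37% and 8.84% for NFKBIE-wt and 8.55%, 8.80% and 8.41% for NFKBIE-ko. All PC libraries lay above all in vitro libraries. Spleen libraries spread over both ranges, with 8.99%, 12.5%, 8.43% and 8.02% for NFKBIE-wt and 9.44%, 7.86%, 11.4% and 10.4% for NFKBIE-ko. NFKBIE-wt spleen replicate 2 was the highest of its group and replicate 4 of the libraries labelled NFKBIE-wt spleen the lowest. Without the latter, NFKBIE-wt spleen averaged 9.98% ± 2.22 (n = 3) in place of 9.49% ± 2.06 (n = 4).

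Other short protein-coding mRNAs, under 1000 bases, took 3.20% to 3.98% of the counts in NFKBIE-wt PC and 2.96% to 3.44% in NFKBIE-wt in vitro, and these ranges overlapped. In NFKBIE-ko they took 3.55% to 4.04% in PC and 3.42% to 3.45% in vitro, and these ranges did not overlap. Mitochondrially encoded genes took 1.97% to 5.06% in PC and 1.37% to 2.16% in vitro. The part of either in the member share was not tested. Retained-intron transcripts made up 2.10% to 3.13% of member counts over all libraries. In bulk RNA, fewer cells of a type and less RNA per cell cannot be told apart.

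**Figure D2:**
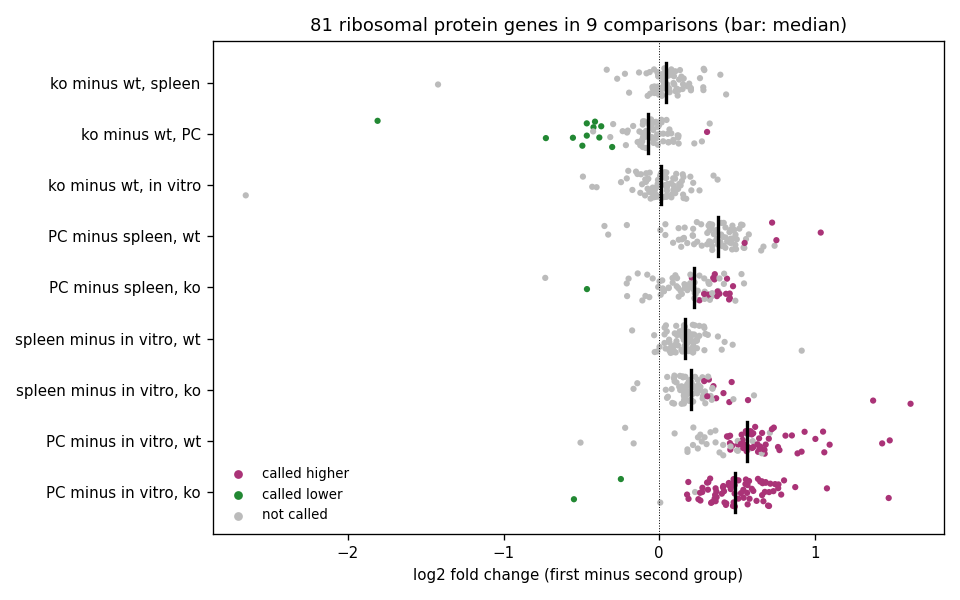
Log2 fold change (x axis) of the 81 tested ribosomal protein genes in the 9 comparisons (y axis), with values to the right of 0 where the first-named group was higher. Each point is a gene, colored where its adjusted p was below 0.05, and the bar is the median, which lay near 0 in the 3 genotype comparisons and at 0.57 and 0.49 for PC against in vitro.

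The first question was whether loss of Nfkbie changed the members within a compartment. In PC, 1 member rose and 11 fell in NFKBIE-ko, against 22.5% and 20.9% of all 12642 genes tested in those directions. The median member stood at -0.07 on the log2 scale, and the median gene at -0.01. Those that fell included Rpl3l, Rpl5, Rpl21, Rpl6, Rpl9, Rpl12, Rpl18, Rplp0 and Rpl22l1, and the 1 that rose was Rpl7l1. In 9 members all NFKBIE-ko PC libraries lay below all NFKBIE-wt PC libraries, and in 1 all lay above. Among all genes tested 19.4% and 22.1% did so. Only Rpl3l was called with a log2 change beyond 1, which 13.5% of all genes reached. The share of members called lower (11 of 81) was thus below that of all genes.

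Rpl5, which binds 5S rRNA together with Rpl11 before entering the large subunit, fell in PC. It was read at 181, 183, 182 and 225 CPM in NFKBIE-wt PC replicates 1 to 4 and at 114, 110.2, 121 and 124 CPM in the NFKBIE-ko replicates (log2 fold change -0.73, SE 0.086, adjusted p = 8.81e-05). The groups did not overlap, and NFKBIE-wt replicate 4 stood above its group. With the counts of its copies added, Rpl5 had a log2 fold change of -0.49, adjusted p = 0.00121. Rpl11, its partner, was not called (0.06, adjusted p = 0.688).

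Rpl3l was read at 8.21, 5.65, 5.85 and 4.32 CPM in NFKBIE-wt PC and at 1.71, 1.75, 1.91 and 1.54 CPM in NFKBIE-ko PC (log2 fold change -1.81, SE 0.22, adjusted p = 9.37e-05). All NFKBIE-ko PC libraries were lower, at levels near 2 CPM. Rpl3, which is the abundant form and reaches towards the peptidyl transferase center, averaged 2903 ± 190.2 and 2958 ± 127 CPM in NFKBIE-wt and NFKBIE-ko PC (0.01, adjusted p = 0.894).

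Rpl21 stood at 1997, 1913, 1654 and 2027 CPM in NFKBIE-wt PC and 1317, 1204, 1341 and 1352 CPM in NFKBIE-ko PC (log2 fold change -0.55, SE 0.086, adjusted p = 0.000492). Rpl6 stood at 2944, 2748, 2512 and 2952 CPM and 1943, 1888, 2046 and 2115 CPM in the same groups (log2 fold change -0.49, SE 0.082, adjusted p = 0.000733). Neither gene's groups overlapped. Rplp0, the protein on which the P1 and P2 stalk dimers sit, averaged 5934 ± 589 CPM in NFKBIE-wt PC and 4499 ± 401 CPM in NFKBIE-ko PC (SD, n = 4; log2 fold change -0.41, SE 0.10, adjusted p = 0.00697). The other stalk members were not called, with log2 fold changes of -0.10 for Rplp1 and -0.23 for Rplp2. Rpl9 fell as well (-0.46, adjusted p = 0.0189), although its lowest NFKBIE-wt library (1867 CPM) lay below the highest NFKBIE-ko library (1957 CPM).

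Rpl12, which lies at the base of the stalk, fell from 163 ± 13 to 119 ± 18.1 CPM (SD, n = 4; -0.46, adjusted p = 0.00665), and with the counts of its copies added its value was -0.13, adjusted p = 0.419. Rpl18 (-0.42, adjusted p = 0.00682) and Rpl22l1 (-0.38, adjusted p = 0.0431) fell as well. Rpl7l1, a relative of Rpl7 known from early large-subunit assembly, rose from 119, 118, 100.0 and 115 CPM in NFKBIE-wt PC to 127, 152, 144 and 143 CPM in NFKBIE-ko PC (log2 fold change 0.31, SE 0.079, adjusted p = 0.00949), again without overlap.

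Markers of other cells differed between these groups as well. Of 13 myeloid markers, 11 were higher in NFKBIE-ko PC, and their summed share was 0.393% to 0.568% of the counts against 0.0643% to 0.185% in NFKBIE-wt PC. Of 8 granulocyte markers tested, 6 were lower, at 0.00312% to 0.00497% against 0.0169% to 0.0493%. Of 14 T cell markers, 8 were higher and 3 lower, at 0.0607% to 0.0700% against 0.101% to 0.141%. Of 11 B cell markers, 5 were higher and 3 lower, of 5 stromal markers 1 was higher and 4 lower, of 6 plasma cell markers 2 were lower, and of 5 erythroid markers 0 were called by edgeR. Their part in the member results was not tested. Leaving out 1 library at a time gave 8 to 14 members lower and 1 to 4 higher. The 4 were reached without NFKBIE-wt PC replicate 4, when Rps14 (0.46), Rpl17 (0.37) and Rpl41 (0.35) passed the test beside Rpl7l1.

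In spleen, no member was called between the genotypes by edgeR, against 2.3% of all genes called higher, 3.13% called lower and 2.99% called with a log2 change beyond 1. 1 member, Rpl3l, had an unadjusted p below 0.05, and DESeq2 called 1, Rpl3l, lower and none higher. The median member stood at 0.04, with 58 of 81 above 0, and the median SE of a member was 0.20. Rpl3l was read at 8.32, 12.5, 6.52 and 3.21 CPM in NFKBIE-wt spleen and at 1.49, 4.81, 2.06 and 3.08 CPM in NFKBIE-ko spleen (-1.42, adjusted p = 0.116). Rpl5 was read at 177, 188, 147 and 94.9 and 114, 114, 139 and 115 CPM (-0.34, adjusted p = 0.338). For Rpl3l, only replicate 4 of the libraries labelled NFKBIE-wt spleen reached into the NFKBIE-ko range. For Rpl5 that library lay below all NFKBIE-ko libraries, and the other 3 NFKBIE-wt libraries lay above them. Without that library both were called lower, with Rpl3l at -1.67 (adjusted p = 0.0260) and Rpl5 at -0.50 (adjusted p = 0.0349).

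In vitro, no member was called by edgeR, against 0.0341% of all genes called higher, 0% called lower and 0.0341% called with a log2 change beyond 1. 4 members had an unadjusted p below 0.05, and DESeq2 called none. The median member stood at 0.01. Rpl3l was read at 1.65, 1.50 and 17.4 CPM in NFKBIE-wt and at 1.39, 0.963 and 0.950 CPM in NFKBIE-ko replicates 1 to 3 (-2.66, adjusted p = 0.517). Its high value belonged to replicate 3 of the libraries labelled NFKBIE-wt in vitro, and without that library the log2 fold change was -0.51 (adjusted p = 0.636). Without NFKBIE-wt in vitro replicate 2, Rps14 was called higher (0.86, adjusted p = 0.0288) and Rpl5 lower (-0.58, adjusted p = 0.0379).

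The effect of genotype was also compared between compartments in 1 model of all 22 libraries. No member differed by edgeR between spleen and PC, spleen and in vitro, or PC and in vitro, against 4.92%, 0.443% and 4.8% of all genes. DESeq2 called none either, and at an unadjusted p below 0.05 there were 2 members, Rpl12 among them, for spleen against PC and 0 for the other contrasts. Without both libraries that went against their labels, edgeR again called 0 members in each of these contrasts. With all libraries, the smallest adjusted p of a member was 0.196, 0.561 and 0.411 in the same order. Without NFKBIE-wt spleen replicate 2, 2 members were called for spleen against PC, with Rpl12 at 0.89 (adjusted p = 0.0480).

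**Figure D3:**
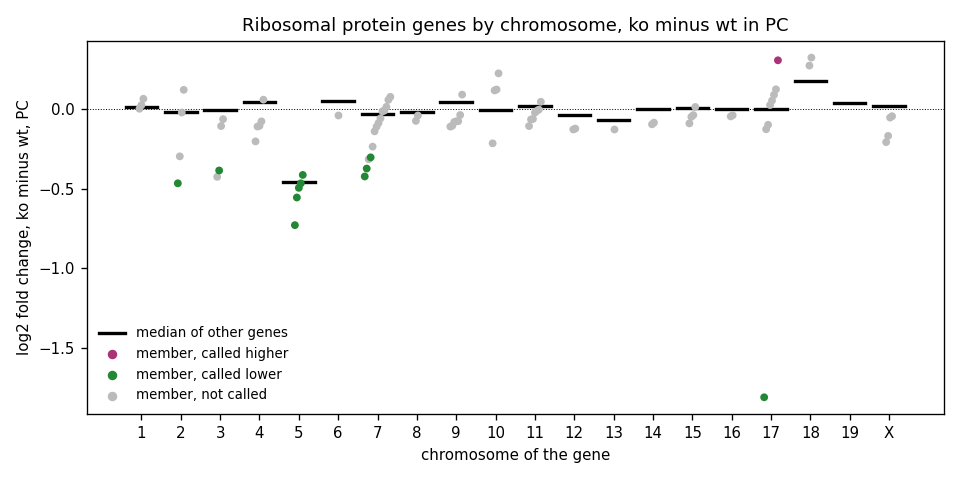
Log2 fold change of ribosomal protein genes between NFKBIE-ko and NFKBIE-wt in PC (y axis) by the chromosome of the gene (x axis). Points are members, colored where the adjusted p was below 0.05, and dashes are the median of the other genes on each chromosome; all 5 members on chromosome 5 fell, and the dash of chromosome 5 lies at -0.46.

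The members that fell in NFKBIE-ko PC were unevenly placed in the genome. Members lay on 19 chromosomes, with 14 on chromosome 7. All 5 members on chromosome 5, which were Rpl5, Rpl9, Rplp0, Rpl6 and Rpl21, were called lower in PC, with a median of -0.49. Of the 74 members on chromosomes other than 5 and 18, 6 were called lower and 1 higher. In the GRCm39 annotation the 5 genes lie at chr5:65540227-65548804 (Rpl9), chr5:108048367-108058471 (Rpl5), chr5:115694515-115701793 (Rplp0), chr5:121342541-121347580 (Rpl6) and chr5:146769699-146776408 (Rpl21). The same 5 were below 0 in spleen (-0.34 to -0.06) and in vitro (-0.49 to -0.08) without passing the test. The 2 members on chromosome 18, Rps14 and Rpl17, were above 0 in all 3 compartments, with log2 fold changes of 0.33 and 0.28 in PC, and were not called. Rps14, a gene of the small subunit lost in human 5q- syndrome, stood at 1712, 1379.6, 1239.5 and 1999 CPM in NFKBIE-wt PC and 1863, 1866, 1990.3 and 2285 CPM in NFKBIE-ko PC, and these groups overlapped.

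Other genes of these chromosomes moved the same way. The median log2 fold change of the other genes on chromosome 5 was -0.30 in spleen, -0.46 in PC and -0.30 in vitro. On chromosome 18 it was 0.15, 0.18 and 0.18. Medians of the 18 other chromosomes stayed between -0.06 and 0.05 in these comparisons. In PC, 507 of 786 tested genes on chromosome 5 were called lower (64.5%) and 122 of 304 on chromosome 18 were called higher (40.1%).

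**Figure D4:**
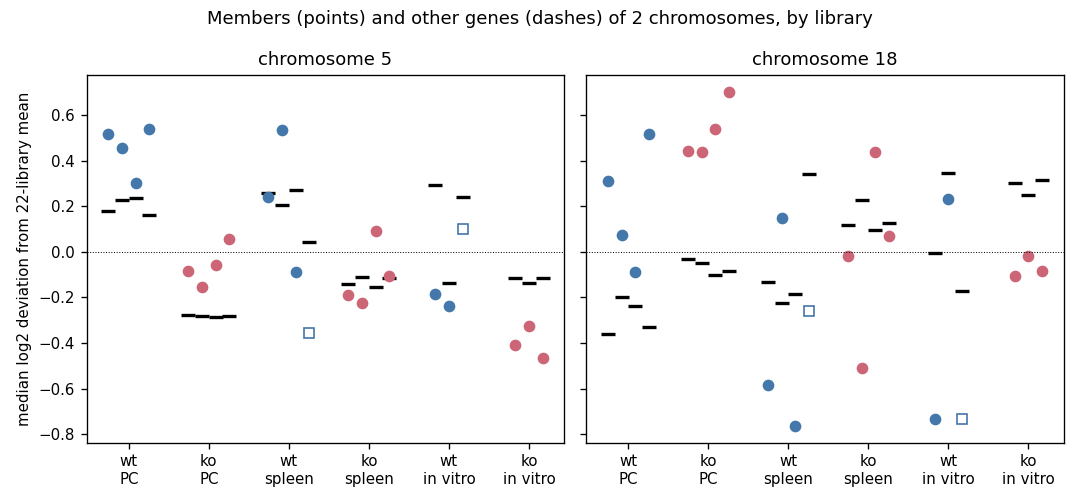
Median log2 deviation from the 22-library mean (y axis) of the ribosomal protein genes (points) and of the other genes (dashes) on chromosomes 5 and 18, by library and group (x axis). Blue points are NFKBIE-wt, red NFKBIE-ko and open squares the 2 libraries whose markers went against their labels; the dash of NFKBIE-wt in vitro replicate 2 lies beside those of NFKBIE-ko in vitro on chromosome 5.

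Read library by library, the other genes of chromosome 5 deviated from the 22-library mean by 0.16 to 0.23 in NFKBIE-wt PC and by -0.29 to -0.28 in NFKBIE-ko PC, on the log2 scale. The 5 members deviated by 0.30 to 0.54 and by -0.15 to 0.05 in the same groups. Neither pair of ranges overlapped. In NFKBIE-wt in vitro the other genes of chromosome 5 stood at 0.29 and 0.24 in replicates 1 and 3, and at -0.14 in replicate 2. The NFKBIE-ko in vitro libraries stood at -0.14 to -0.11, so replicate 2 was at the level of the other genotype. Replicate 4 of the libraries labelled NFKBIE-wt spleen was also lower (0.04) than the other 3 of its group (0.20 to 0.27). On chromosome 18 these 2 libraries stood highest of their groups, at 0.35 and 0.34. The 5 members of chromosome 5 stood in vitro at -0.18, -0.24 and 0.10 in NFKBIE-wt replicates 1 to 3 and at -0.47 to -0.33 in NFKBIE-ko.

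An alternative added after the data were seen set library sizes within each chromosome, from its genes other than members. In PC, Rpl6 (-0.07, adjusted p = 0.494), Rpl21 (-0.13, adjusted p = 0.223), Rpl9 (-0.04) and Rplp0 (0.01, adjusted p = 0.947) then lost their calls. Rpl5 remained lower (-0.31, adjusted p = 0.0157), as did Rpl3l, Rpl12, Rpl22l1 and Rpl18 among others, and Rpl7l1 remained higher. Rpl13a, which lies on chromosome 7, joined them (-0.33, adjusted p = 0.0345). Rps14 and Rpl17 stood at 0.09 and 0.04. Relative to the other genes of chromosome 5, only Rpl5 of the 5 members was thus called lower. Copies held 95.0% of the combined counts of Rpl5 and 93.1% of those of Rpl12, and this alternative did not add them. With copies added and the usual library sizes, the fall of Rpl5 given above was close to the chromosome 5 median of -0.46, and Rpl12 was not called. What underlies the level of either chromosome was not tested.

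The second question was how the members differed between compartments. For most members the group mean was highest in PC and lowest in vitro. The group means ran PC above spleen above in vitro in 75 of 81 members for NFKBIE-wt and in 69 of 81 for NFKBIE-ko. Without both libraries that went against their labels, this order held in 72 of 81 for NFKBIE-wt. The 3 comparisons within a genotype share libraries and are set side by side only.

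Between PC and in vitro, 51 members were called higher in PC and 0 lower for NFKBIE-wt, against 10.4% and 11% of all genes. For NFKBIE-ko, 77 were higher and 2 lower, against 36% and 31.8% of all genes. The median member stood at 0.57 and 0.49, with the median gene at -0.01 and 0.03. Of the 32 small-subunit genes, 23 and 31 were higher, and of the 49 tested large-subunit genes, 28 and 46. In 59 members for NFKBIE-wt and 76 for NFKBIE-ko all PC libraries lay above all in vitro libraries, as did 17.6% and 33.7% of all genes. Without replicate 3 of the libraries labelled NFKBIE-wt in vitro, 51 were higher and 1, Rpl7l1, was lower (-0.74, adjusted p = 0.00266). The NFKBIE-wt count was 9 without PC replicate 1, 11 without PC replicate 4 or without in vitro replicate 1, and 18 without PC replicate 2, while the median stayed between 0.49 and 0.70.

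Rps27, a zinc finger protein of the small subunit, showed one of the widest differences. It was read at 85.5, 64.8, 49.7 and 81 CPM in NFKBIE-wt PC and 23.3, 38.8 and 15.4 CPM in NFKBIE-wt in vitro (log2 fold change 1.48, SE 0.33, adjusted p = 0.0225). In NFKBIE-ko it was 46.7, 46.7, 62.1 and 55.8 CPM in PC and 26.8, 30.5 and 20.6 CPM in vitro (log2 fold change 1.08, SE 0.15, adjusted p = 0.000211). PC and in vitro libraries did not overlap in either genotype. With the counts of its copies added, the differences were 1.25, adjusted p = 0.00625, for NFKBIE-wt and 1.07, adjusted p = 1.86e-06, for NFKBIE-ko.

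Rpl13a, the most abundant member per kilobase and a part of the interferon-regulated GAIT complex in human myeloid cells, averaged 4636 ± 708 CPM in NFKBIE-wt PC and 2488 ± 80.6 CPM in vitro (SD; 0.94, adjusted p = 0.00623). Rpl39, at the exit tunnel of the large subunit, was higher by 1.10 in NFKBIE-wt (adjusted p = 0.0167) and by 0.80 in NFKBIE-ko (adjusted p = 1.15e-05). Rps6, the substrate of the S6 kinases, rose by less, at 0.54 and 0.41. All these genes were called higher in PC in both genotypes. Without replicate 3 of the libraries labelled NFKBIE-wt in vitro, the NFKBIE-wt differences were 1.22 for Rps27 (adjusted p = 0.0174), 0.94 for Rpl13a (adjusted p = 0.00672), 0.90 for Rpl39 (adjusted p = 0.00971) and 0.49 for Rps6 (adjusted p = 0.0448).

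The differences were unequal among abundant members. In NFKBIE-ko, Rps18 averaged 2384 ± 186 CPM in PC and 1578 ± 58.7 CPM in vitro (0.65, adjusted p = 2.28e-05), and Rpl23a averaged 1701 ± 67.4 and 1402 ± 43.7 CPM (0.33, adjusted p = 0.000478). Rps2 averaged 2934 ± 209 and 2673 ± 37.5 CPM (0.19, adjusted p = 0.0283), and Rplp0 4499 ± 401 and 3857 ± 57 CPM (0.28, adjusted p = 0.00759; SD, n = 4 and 3). Rps27a, made as a fusion with ubiquitin, was higher by 0.48, and Rps3, which also acts in DNA repair, by 0.58. Rpl41 was higher by 0.49 in NFKBIE-ko (adjusted p = 0.000246) and stood at 0.36 in NFKBIE-wt (adjusted p = 0.185).

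Rpl11 was not called in either genotype. Its levels were 1204, 1093, 932 and 1231 CPM in NFKBIE-wt PC and 898, 1139 and 988 CPM in NFKBIE-wt in vitro (0.18, adjusted p = 0.374), and 1090.2, 1074, 1189.7 and 1337 CPM and 1223, 1175 and 1238 CPM in NFKBIE-ko (0.01, adjusted p = 0.939). The groups overlapped in both genotypes. Rpl5, its partner in the 5S rRNA complex, was higher in PC by 0.71 and 0.43. In NFKBIE-ko, Rpl10, at the subunit interface, was the other member that was not called (0.23, adjusted p = 0.0856).

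Between PC and spleen, 4 members were higher in PC for NFKBIE-wt and 0 lower, against 14.3% and 14.3% of all genes. They included Rps7 (0.55, adjusted p = 0.0395), Rpl13a (0.73, adjusted p = 0.0477) and Rps27 (1.04, adjusted p = 0.0415), and 78 of 81 members lay above 0, with a median of 0.38. Rps27 stood at 24.6, 59, 33.9 and 21.4 CPM in NFKBIE-wt spleen, where replicate 2 reached into its PC range. Without replicate 4 of the libraries labelled NFKBIE-wt spleen, 1 member was called, and Rps27 (0.86, adjusted p = 0.0508), Rps7 and Rpl13a were not. Without NFKBIE-wt spleen replicate 2, 60 members were higher and the median was 0.57. With PC replicate 1 or 4, or spleen replicate 1 or 3, left out, 0 were called by edgeR, and without PC replicate 2 there was 1. With all libraries, 31 members had an unadjusted p below 0.05 and DESeq2 called 28 higher.

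For NFKBIE-ko, 18 members were higher in PC than in spleen and 1 was lower, against 29.6% and 30.1% of all genes, so the share of members called higher (18 of 81) was below that of all genes while their median stood at 0.22. Rpl22, which is known for its role in T cell development, had the smallest adjusted p. It stood at 714, 703, 752 and 780.4 CPM in PC and 527, 514, 599.8 and 503 CPM in spleen (log2 fold change 0.45, SE 0.084, adjusted p = 0.00109), with no overlap. Rps16, Rpl17, Rpl26, Rpl31, Rpl32 and Rpl30 followed, higher by 0.32 to 0.44 and also without overlap. Rpl4, Rps7, Rps24, Rps15a, Rpl13a, Rps4x, Rps9 and Rpl23 were among the others. Rpl7l1 was the member that fell (-0.46, adjusted p = 0.0165). Lower members numbered 5 without NFKBIE-ko spleen replicate 2, 2 without spleen replicate 1 and 0 without PC replicate 1 or spleen replicate 4. The count of higher members was 32 without NFKBIE-ko spleen replicate 3 and 9 or 10 without PC replicate 3, PC replicate 4 or spleen replicate 1.

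Between spleen and in vitro, no member was called for NFKBIE-wt by edgeR, against 0% of all genes called higher and 0% called lower. 0 members and 136 of 12332 genes had an unadjusted p below 0.05, and DESeq2 called 0 members. Both libraries that went against their labels enter this comparison, and without them 1 member, Rpl3l, was higher in spleen (2.53, adjusted p = 0.0191). For NFKBIE-ko, 11 members were higher in spleen and 0 lower, against 20.3% and 18.4% of all genes, with a median of 0.20. They were Rpl22l1, Rpl3l, Rps21, Rps12, Rplp2, Rpl5, Rpl27a, Rpl35a, Rpl7a, Rps24 and Rpl35. Without NFKBIE-ko spleen replicate 2, 66 members were higher, without spleen replicate 1 or 4 there were 7, and without 1 of the in vitro replicates there were 2 to 4.

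The compartments also differed in other cells and in cell cycle genes. All 12 proliferation genes were called lower in PC than in spleen or in vitro in both genotypes, with a summed share of 0.148% to 0.202% of the counts in PC, 0.293% to 0.444% in spleen and 0.343% to 0.465% in vitro. All 13 myeloid markers were higher in PC than in spleen in both genotypes, and took 0.00386% to 0.0387% of the counts in spleen and 0.00388% to 0.0106% in vitro. Between PC and in vitro, 13 of 13 were higher in PC for NFKBIE-ko and 11 of 13 for NFKBIE-wt. In NFKBIE-ko, 10 of 14 T cell markers, 6 of 8 granulocyte markers and 8 of 8 erythroid markers were lower in PC than in spleen, and 1 T cell marker was higher. In NFKBIE-wt the same comparison gave 1 of 13 T cell, 0 of 8 granulocyte and 3 of 7 erythroid markers lower and none of them higher by edgeR. Against in vitro, NFKBIE-ko PC had 13 of 14 T cell markers and 6 of 6 granulocyte markers higher and 1 T cell marker lower, and of 5 erythroid markers 4 higher and 1 lower. NFKBIE-ko spleen against in vitro had 12 of 14 T cell, 8 of 8 granulocyte, 8 of 9 erythroid and 10 of 13 myeloid markers higher, with 1 T cell and 1 myeloid marker lower. In NFKBIE-wt, 1 of 13 T cell markers was lower in PC than in vitro, and no granulocyte or erythroid marker was called there by edgeR. Between NFKBIE-wt spleen and in vitro no marker of these 4 lists was called by edgeR, where 0% of all genes were called. Both libraries that went against their labels enter that comparison and the ranges above. Replicate 4 labelled NFKBIE-wt spleen had the lowest myeloid share (0.00386%) and the highest proliferation share (0.444%) in spleen. Replicate 3 labelled NFKBIE-wt in vitro had the highest myeloid share (0.0106%) and the lowest proliferation share (0.343%) in vitro. The part of other cells and of cell cycle genes in the member results was not tested.

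**Figure D5:**
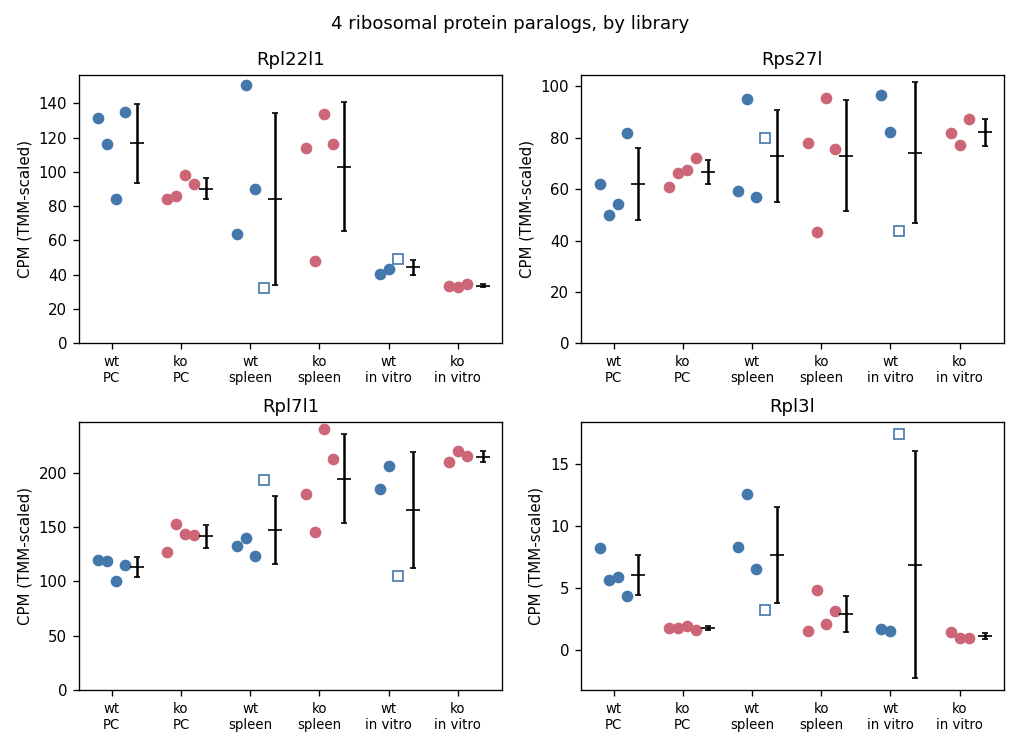
Level (y axis, CPM) of 4 ribosomal protein paralogs in each library of the 6 groups (x axis). Points are libraries, open squares the 2 libraries whose markers went against their labels, and bars the mean ± SD; Rpl22l1 is lowest in vitro and Rpl7l1 is lowest in PC among the NFKBIE-ko groups.

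The paralogs differed from each other. Rpl22l1, a paralog of Rpl22 that Rpl22 is known to repress, stood at 131, 116, 84.5 and 135 CPM in NFKBIE-wt PC, 63.6, 151, 90.0 and 32.3 CPM in spleen and 40.6, 43.4 and 49 CPM in vitro. In NFKBIE-ko it stood at 84.4, 85.9, 97.9 and 92.9 CPM, 114, 48.3, 134 and 117 CPM and 33.5, 33.1 and 34.6 CPM in the same order. It was low in every in vitro library, in replicate 4 of the libraries labelled NFKBIE-wt spleen (32.3 CPM) and in NFKBIE-ko spleen replicate 2 (48.3 CPM). PC exceeded in vitro by 1.43, adjusted p = 0.00378, in NFKBIE-wt and by 1.48, adjusted p = 8.70e-08, in NFKBIE-ko. The NFKBIE-wt value was 1.52 without in vitro replicate 3 (adjusted p = 0.00185). Spleen exceeded in vitro by 1.62, adjusted p = 0.00384, in NFKBIE-ko. Rpl22 itself was higher in PC than in vitro by 0.60 and 0.55, and was not called between NFKBIE-ko spleen and in vitro (0.04, adjusted p = 0.722).

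Rpl7l1 and Rps27l ran the other way from the remaining members. Rpl7l1 stood at 209, 219.6 and 215 CPM in NFKBIE-ko in vitro and 179.9, 145, 239.9 and 213 CPM in spleen, and its PC values of 127 to 152 CPM were overlapped by 1 of these spleen libraries. PC minus in vitro was -0.55, adjusted p = 2.98e-05, in NFKBIE-ko and -0.51, adjusted p = 0.126, in NFKBIE-wt. Its partner Rpl7 was higher in PC in NFKBIE-ko (0.32, adjusted p = 0.00114). Rps27l, a paralog of Rps27, stood at 60.7, 66.4, 67.5 and 72.2 CPM in NFKBIE-ko PC and 81.7, 77.2 and 87.5 CPM in vitro, without overlap (-0.25, adjusted p = 0.0104). Without in vitro replicate 3 of NFKBIE-ko, 1 member was called lower in PC in place of 2. In NFKBIE-wt the Rps27l groups overlapped (-0.22, adjusted p = 0.603).

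Members of the stalk and members with further roles were counted as well. Of the 4 stalk and surface members, Rplp0, Rplp1, Rplp2 and the laminin receptor gene Rpsa, all 4 were higher in PC than in vitro in NFKBIE-ko and 2 in NFKBIE-wt. Of 11 members with known special roles, 9 and 6 were higher. For comparison, 77 of 81 members and 36% of all genes were higher in NFKBIE-ko, and 51 of 81 members and 10.4% of all genes in NFKBIE-wt. Rps15, which is mutated in human CLL, was higher by 0.67 in NFKBIE-ko (adjusted p = 2.38e-05) and 0.57 in NFKBIE-wt (adjusted p = 0.0422). Without in vitro replicate 3 the NFKBIE-wt value of Rps15 was 0.60 (adjusted p = 0.0413). Rps19, the gene most often mutated in Diamond-Blackfan anemia, was higher by 0.53 in NFKBIE-ko (adjusted p = 0.000247) and was not called in NFKBIE-wt (0.66, adjusted p = 0.0563).

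Genes that share a pathway with the members were counted from lists of their known roles. A list of 17 genes known to carry TOP motifs covered translation factors and other proteins. Of the 11 with a promoter entry, a C and T run began at the annotated start in 1 and within 5 bases of it in 4. In PC against in vitro, 12 of the 17 were higher and 2 lower for NFKBIE-ko. For NFKBIE-wt, 4 were higher and 0 lower. Among all genes 36% were higher and 31.8% lower in NFKBIE-ko, and 10.4% higher in NFKBIE-wt. Tpt1 was the widest of them in NFKBIE-ko (1.01), and Npm1 (-0.33) and Hnrnpa1 (-0.14) were the 2 lower. Of 4 genes for ribosomal proteins or a ribosome-bound protein outside the naming rule, Rack1 (0.54), Fau (0.71) and Rpl36al (0.15) were higher in the same comparison. Between PC and spleen the 37 ribosome biogenesis genes ran against the members. 35 were lower and 0 higher for NFKBIE-ko, with a median of -0.81, and 20 were lower for NFKBIE-wt, with a median of -0.35. Among all genes 30.1% were lower in NFKBIE-ko and 14.3% in NFKBIE-wt. Nop56, a core protein of the box C/D particles that methylate rRNA, fell by 1.19 in NFKBIE-ko. Between spleen and in vitro in NFKBIE-ko the biogenesis genes ran with the members. There 13 were higher and 0 lower, with a median of 0.27, against 20.3% and 18.4% of all genes. Of 78 mitochondrial ribosomal protein genes, 54 were lower and 2 higher in PC than in spleen for NFKBIE-ko, against the same 30.1% lower and 29.6% higher, and 16 were lower and 0 higher for NFKBIE-wt. Between genotypes in PC, 0 biogenesis genes were higher and 12 lower, against 22.5% and 20.9% of all genes. In spleen 1 was higher and 0 lower, against 2.3% and 3.13%. A list of 12 genes covered mTOR signalling, ribosomal S6 kinases and cap-dependent translation. In NFKBIE-ko PC 2 were higher and 0 lower, against the same 22.5% and 20.9%. They were the S6 kinase gene Rps6ka1 (0.57) and Deptor (1.68). Deptor was read at low levels, with means of 2.71 CPM in NFKBIE-ko PC and 0.83 CPM in NFKBIE-wt PC. The transcripts of Mtor, Larp1, Rps6kb1 and Rps6kb2 were not called there (0.09, 0.17, 0.05 and -0.11).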

How the data were processed

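RNA was sequenced from 22 samples as poly(A)-selected mRNA libraries. The authors quantified transcripts with Salmon against the GRCm39 transcriptome and deposited estimated counts per transcript in 1 table. CASAVA and DESeq2 are also named in the submitters' processing notes. The table held 62492 transcripts, each above 0 in at least 5 samples, and 69.5% of its values were not whole numbers.

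Transcripts were matched to genes through the GENCODE annotation. The 0.619% of counts on transcripts without a match stayed out of the library sizes of the tests and of CPM. They were kept in the total counts per library, by which the percent shares were divided. Estimated counts were summed per gene and rounded. Each pair of groups was compared with the edgeR quasi-likelihood test (edgeR 4.0.16, limma 3.58.1, R 4.3.3) on its own samples, with the default filter on low counts and TMM scaling, over all genes, and a gene was called at a Benjamini-Hochberg adjusted p below 0.05. The 3 contrasts of the genotype effect between compartments used 1 model of all 22 samples. DESeq2 1.42.0 and the other settings given under the dependence on the processing were alternatives. On simulated counts with the means of the PC libraries, 55 of 200 genes changed by 0.5 and 198 of 200 changed by 1 on the log2 scale were recovered between the genotypes. In vitro the same changes were recovered in 0 and 28 of 200.

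No replicate pair agreed within sampling noise, with chi-square values per degree of freedom of 7.12 or more. The members and lists were chosen with earlier results of these data known. Named members were the 5 highest and 5 lowest log2 fold changes of each genotype comparison, the 3 highest and 3 lowest of each comparison between compartments (both among members with at least 10 CPM on average), paralogs and their partners, stalk members, members with special roles and the 5 highest and 5 lowest levels per kilobase. Called members outside this rule were named after their values were seen. Lists covered TOP genes (translation factors and others), ribosome biogenesis, mitochondrial ribosomal proteins and other ribosomal proteins. They also covered mTOR signalling with S6 kinases and cap-dependent translation, proliferation and markers of B, T, myeloid, granulocytic, erythroid, plasma and stromal cells. Some called members are counted but not reported by name here.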

Additional observations from a re-analysis of the deposited data

Results flagged for a closer look

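The levels of the 39 named members and their share of the library were searched in the 4 groups of 4 libraries for a library whose gap to its nearest neighbor, relative to the range of the group, exceeded Dixon's critical value. 15 of 160 sets of values had one, where chance gives about 1 in 20 for a single set. The sets come from the same libraries and are not independent, so the 15 are not separate events. Of the 15, 11 were a high value in NFKBIE-wt spleen replicate 2, which also had the highest share of member counts in spleen (12.5%). They were Rpl13a at 4340 CPM, Rpl18 at 1423 CPM, Rpl39 at 835 CPM, Rpl41 at 1950 CPM, Rpl9 at 2199.8 CPM, Rplp1 at 2535 CPM, Rps18 at 2518 CPM, Rps19 at 1654 CPM, Rps21 at 831 CPM, Rps27a at 1939 CPM and Rps6 at 2210.0 CPM.

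Rpl10 stood at 226 CPM in NFKBIE-ko spleen replicate 2, below 486 to 513 CPM in the other libraries of the group. Rpl17 stood at 2263 CPM in NFKBIE-ko spleen replicate 3, above the rest of that group. Rpl5 stood at 139 CPM in the same library, against 114 to 115 CPM in the others. In NFKBIE-wt PC replicate 4 Rpl5 stood at 225 CPM, against 181 to 183 CPM in the others.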

How the results depend on the processing

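Of 565 recomputed values of 33 results, 515 stayed within 1.5 times the reported count or, for medians, within the spread, and 50 moved. 0 were labelled reversed, a label open only to medians whose reported value exceeded the spread, and not to counts. Of 207 medians, 11 took another sign, all of them small. For NFKBIE-ko against NFKBIE-wt in PC, members higher numbered 2 with total counts, 2 with DESeq2, 2 with a replicate block, 0 with all 22 samples in 1 fit and 0 beyond a log2 change of 1, and members lower numbered 5 in the shared fit and 1 beyond that change. In spleen, DESeq2 gave 1 member lower. For PC against spleen in NFKBIE-wt, members higher numbered 7 with median-ratio size factors, 2 without a filter, 28 with DESeq2, 0 with a replicate block and 7 with library sizes within each chromosome. In NFKBIE-ko a replicate block gave 28. For spleen against in vitro, 1 was higher in NFKBIE-wt without both libraries that went against their labels, and 17 with DESeq2 and 2 with a replicate block in NFKBIE-ko. For PC against in vitro in NFKBIE-wt a replicate block gave 0. Look-alike counts and library sizes within chromosomes were alternatives chosen after seeing the data. The cause of these shifts was not tested.

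Same-numbered samples had residual correlations of -0.31 to 0.43, and in no comparison did every pair exceed 0.1, so the numbers were not taken to pair the samples. Leaving out 1 library at a time gave, for NFKBIE-ko against NFKBIE-wt, 0 to 2 members lower in spleen, 1 to 4 higher and 8 to 14 lower in PC, and 0 to 1 higher and 0 to 1 lower in vitro. It gave 0 to 60 higher for PC against spleen in NFKBIE-wt, 9 to 32 higher and 0 to 5 lower in NFKBIE-ko, 2 to 66 higher for spleen against in vitro in NFKBIE-ko, 9 to 51 higher and 0 to 1 lower for PC against in vitro in NFKBIE-wt, 1 to 2 lower in NFKBIE-ko, and 0 to 2 members called for the genotype effect in spleen against PC. The medians kept their sign for PC against spleen and PC against in vitro, at 0.30 to 0.57 and 0.49 to 0.70 in NFKBIE-wt. In NFKBIE-ko they were 0.13 to 0.31 and 0.45 to 0.55. For spleen against in vitro they were 0 to 0.29 in NFKBIE-wt and 0.12 to 0.30 in NFKBIE-ko. Of the 12 members called between the genotypes in PC, 12 kept their call with DESeq2, 10 with protein-coding transcripts only, 11 with look-alike counts added and 8 with library sizes within chromosomes.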
